A study of Mus musculus with 4 samples.

Results

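The SLAM family is a group of 9 receptors of the immunoglobulin superfamily, encoded by Slamf1, Cd48, Cd244a (the platform's symbol for Cd244), Slamf6, Ly9, Slamf7, Cd84, Slamf8 and Slamf9. They were taken by name, though with earlier results of these data known. All 9 of the 9 listed genes were found among 19938 measured genes, each with a single probe set. RNA came from bone marrow cells of C57BL/6 mice aged 8 weeks, sorted for absence of lineage markers and presence of Sca-1 and c-Kit (LSK). This gate takes in haematopoietic stem cells and, in larger number, multipotent progenitors. There were 2 arrays from wild-type (WT) mice and 2 from mice labelled Hif1a-/-, called biological replicates and numbered 1 and 2 in each genotype. Hif1a encodes the alpha chain of HIF-1, which is stable when oxygen is low. The labels give no Cre driver and no deleted part of the gene, and do not say whether mice were pooled. P-values thus measure only the spread between these samples. The log2 signal of Hif1a itself was 10.37 (WT array 1), 10.99 (WT array 2), 10.58 (Hif1a-/- array 1) and 10.64 (Hif1a-/- array 2). The groups overlapped (difference −0.08, SE 0.24), and as the probe set may lie outside the deleted part, this does not check the labels. "Hif1a-/- arrays" are those carrying that label.

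Most SLAM receptors bind a copy of themselves on a neighbouring cell, and CD48 instead pairs with CD244 and CD2. The cytoplasmic tails of several members, but not of all, recruit the small adapters SAP and EAT-2. These couple the receptors to Src-family kinases or, in their absence, leave room for inhibitory phosphatases. In mouse bone marrow, surface CD150 (encoded by Slamf1) together with absence of CD48 and CD244 is a standard definition of stem cells within the LSK gate, while CD48 and CD244 mark multipotent progenitors. Ly108 (Slamf6), CD229 (Ly9), CRACC (Slamf7) and CD84 are known from lymphocytes, and Slamf8 and Slamf9 from macrophages and dendritic cells. These are protein markers, and the arrays measured RNA averaged over all sorted cells, so that fewer cells of a type and less RNA per cell cannot be told apart.

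The values are log2 signals, and 1 unit is a 2-fold change. Median log2 signals over all genes were between 8.54 and 8.56 on the 4 arrays. Kit, the gate's receptor, had log2 signals of 12.57 (WT) and 12.37 (Hif1a-/-) on arrays numbered 1, and of 11.51 and 11.32 on those numbered 2. Ly6a, which encodes Sca-1, was not used here. Arrays of the same number resembled each other across genotypes. With genotype as a covariate, limma called 1108 of 19938 genes between number 2 and number 1 at a Benjamini-Hochberg adjusted p under 0.05, or 5.56%, with 656 higher and 452 lower in number 2 (338 and 102 under median centring). The labels name no batch for the numbers. Each member is therefore given by genotype and by number.

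**Figure D1:**
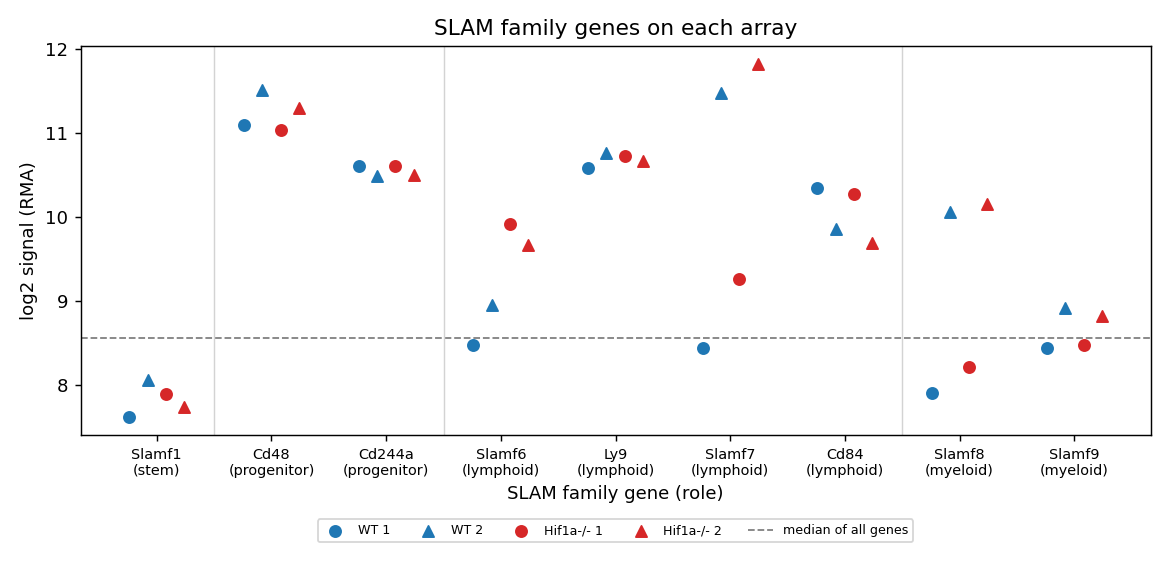
Log2 signal (RMA, vertical axis) of each of the 9 SLAM family genes (horizontal axis, grouped by the cell type each is best known from) on each array, with colour for genotype and shape for array number. Slamf6 is the gene whose 2 Hif1a-/- arrays (9.91 and 9.66) lie above both WT arrays, and Slamf7 and Slamf8 are far higher on both arrays numbered 2; heights of different genes are not comparable, since probe sets differ in brightness.

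Between the genotypes no SLAM gene passed the threshold, and Slamf6 alone had groups that did not overlap. limma called 0 of the 9 members and 0 of 19938 genes (0%) at an adjusted p under 0.05. At an unadjusted p under 0.05 there was 1 member, Slamf6, beside 145 genes in all, or 0.727%. With array number as a block Slamf7 was also under 0.05 (unadjusted p = 0.0151 in limma), beside 478 genes in all. The WT range was exceeded by both Hif1a-/- arrays for 1 member, against 16.1% of all genes, and undercut by both for 0 members, against 8.33% (24.5% in either direction). In the mean 5 members were higher and 4 lower, with a median log2 difference of 0.01, against 0.00 over all genes. Of the 5 higher ones, Cd244a (0.01) and Ly9 (0.02) turned under median centring (−0.08 and −0.07).

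**Figure D2:**
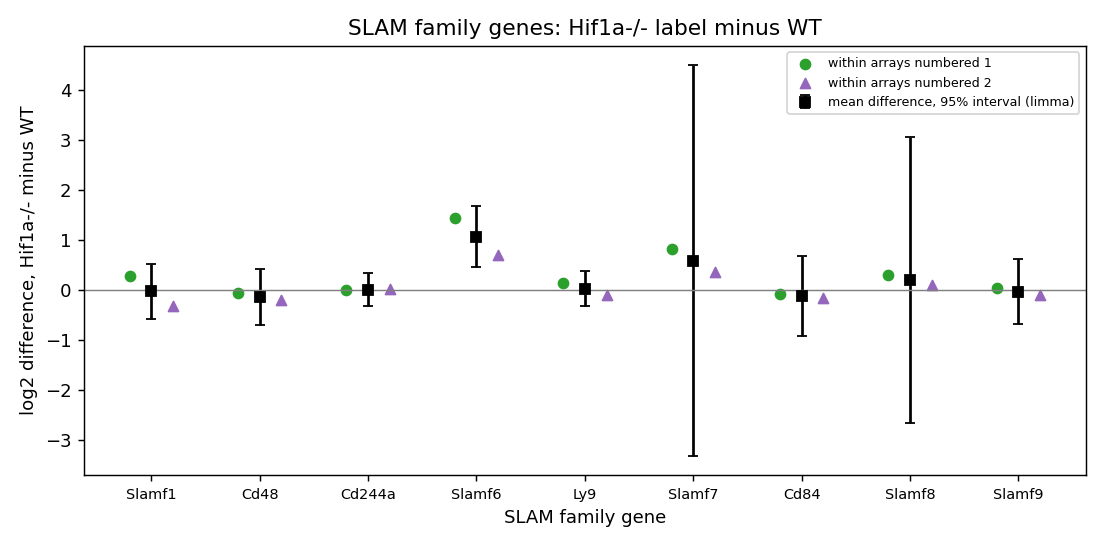
Log2 difference of each SLAM family gene between the Hif1a-/- arrays and the WT arrays (vertical axis), with the limma mean and its 95% interval (squares, bars) and the single differences within arrays numbered 1 (circles) and numbered 2 (triangles). Slamf6 is at 1.07 with an interval from 0.46 to 1.67, and the wide intervals of Slamf7 and Slamf8 come with their large differences between the numbers.

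Slamf1, whose product CD150 is the positive stem cell marker of the family, was dim and did not separate the genotypes. The log2 signals of Slamf1 were 7.62 (WT array 1), 8.06 (WT array 2), 7.89 (Hif1a-/- array 1) and 7.74 (Hif1a-/- array 2). The WT arrays were thus the lowest and the highest, and the groups overlapped. The mean log2 difference between the genotypes was −0.02 (SE 0.20, 95% interval −0.57 to 0.52), with 0.27 within number 1 and −0.32 within number 2. Between the numbers Slamf1 differed by 0.45 in WT and by −0.15 in the Hif1a-/- arrays. The 18 measured genes of unrelated tissues, among them Alb of liver and Gfap of astrocytes, had log2 signals from 5.68 to 9.51. The signal of Slamf1 lay inside this range. The upper end of the range was set by Tgm1 alone, with Apoa2 next at up to 8.92. The deposited table holds no detection calls, and 32.8% of all genes had a lower mean signal than Slamf1. The genes whose centred pattern over the 4 arrays was nearest to that of Slamf1 were Cyp20a1, Cdca8 and Cenpi, at Euclidean distances of 0.0098, 0.026 and 0.026 log2 units.

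Cd48 and Cd244a, which encode the progenitor markers CD48 and CD244, were bright on all arrays and nearly level between the genotypes. Cd48 had log2 signals of 11.09 (WT) and 11.03 (Hif1a-/-) on arrays numbered 1, and of 11.50 and 11.29 on those numbered 2. Its genotypes overlapped, with a mean log2 difference of −0.14 (SE 0.20, 95% interval −0.70 to 0.42). Within number 1 it differed by −0.07 and within number 2 by −0.21. Both arrays numbered 2 were above both numbered 1, by 0.34 log2 units (SE 0.13), which did not pass over all genes in limma (adjusted p = 0.276). Cd244a was the steadiest member. Its log2 signal was 10.60 and 10.49 in WT and 10.61 and 10.50 in the Hif1a-/- arrays, a range of 0.12 over the 4 arrays. The genotype difference of Cd244a was 0.01 (SE 0.12, 95% interval −0.32 to 0.34) and turned under median centring (−0.08), and the difference between the numbers was −0.11 (SE 0.13).

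The stem cell member and the progenitor member Cd48 had no steady difference in their response to genotype. The log2 difference of Slamf1 minus that of Cd48 was 0.34 within number 1 and −0.11 within number 2, a mean of 0.11. In the same arrays the list of other stem cell genes was lower for 13 of 15 in the mean, with a median of −0.23 and 0 genes called. Of these, 1 was lower and 1 higher with no overlap, against 8.33% and 16.1% of all genes. Of 11 measured multipotent and lymphoid-primed progenitor genes 5 were higher and 6 lower, with a median of −0.01 and 0 called. With no overlap 2 of them were higher (Rag1 at 1.24 and Blnk at 0.88) and 1 lower (Ighm at −1.41). The genes with patterns nearest to that of Cd48 were Aph1a, Pde7b and Ormdl2, at distances of 0.018, 0.019 and 0.026 log2 units over 4 arrays. Slamf9 was the nearest member to Cd48, at 0.129, ahead of Slamf1 at 0.315 and Ly9 at 0.324.

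Slamf6 was the member with the clearest separation by genotype. Slamf6 encodes Ly108, a receptor of B, T and NK cells that recruits SAP. Its log2 signal was 8.48 and 8.96 in WT arrays 1 and 2 (mean 8.72 ± 0.34, SD, n = 2), and 9.91 and 9.66 in the Hif1a-/- arrays (mean 9.79 ± 0.18, SD, n = 2). Both Hif1a-/- arrays were above both WT arrays, with WT array 1 the lowest of the 4. The WT arrays lay inside the signal range of the genes of unrelated tissues, array 2 only through Tgm1. Slamf6 was thus not shown to be above background there, and no fold is given. The mean log2 difference was 1.07 (SE 0.22, 95% interval 0.46 to 1.67). It was 1.43 within number 1 and 0.70 within number 2. In limma the unadjusted p was 0.00807, the 20th smallest of 19938 genes, and the adjusted p was 0.9998, so the difference did not pass over all genes. Across the alternatives tried the log2 difference stayed between 0.83 and 1.31, with adjusted p-values from 0.942 to 1.0.

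Most, but not all, measured B-lineage genes had higher means on the same arrays as Slamf6. Of 11 measured B cell markers 11 had a higher mean in the Hif1a-/- arrays, 7 with no overlap, against 16.1% of all genes. Their median log2 difference was 0.85 (0.90 within number 1, 0.50 within number 2), with 0 called by limma. The log2 of their summed signal was 13.25 and 13.22 in WT, and 14.48 and 13.79 in Hif1a-/- arrays 1 and 2. The mature B cell markers Ms4a1 and Cr2 were dim, at log2 signals of 6.45 to 6.995 and 6.75 to 6.80. Ighm and Jchain, named for their values, had lower signals on these arrays. Ighm, which encodes the IgM heavy chain, had log2 signals of 11.50 and 11.53 in WT and 9.99 and 10.21 in the Hif1a-/- arrays, a difference of −1.41 (SE 0.13, adjusted p = 0.9998 in limma). Jchain, which encodes the joining chain of secreted IgM and IgA, differed by −1.45 (SE 0.24), also with no overlap. Of the 7 plasma cell markers, Jchain among them, 6 had a lower mean, 2 with no overlap, against 8.33% of all genes. Their median was −0.19. Of 12 measured T and NK cell markers 10 were higher, 2 with no overlap (Cd2 and Cd3d), with a median of 0.20, and the log2 of their summed signal was 13.19 and 13.35 in WT and 13.12 and 13.51 in the Hif1a-/- arrays. The part of either cell type in the Slamf6 difference was not tested. The genes whose pattern was nearest to that of Slamf6 were Lef1, which encodes a nuclear partner of beta-catenin, at 0.22 log2 units, Vpreb3 of pre-B cells at 0.27 and the recombinase gene Rag1 at 0.39, over 4 arrays. No other member came as near to Slamf6: Ly9 and Slamf1 were the closest members, at 1.07 and 1.09.

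**Figure D3:**
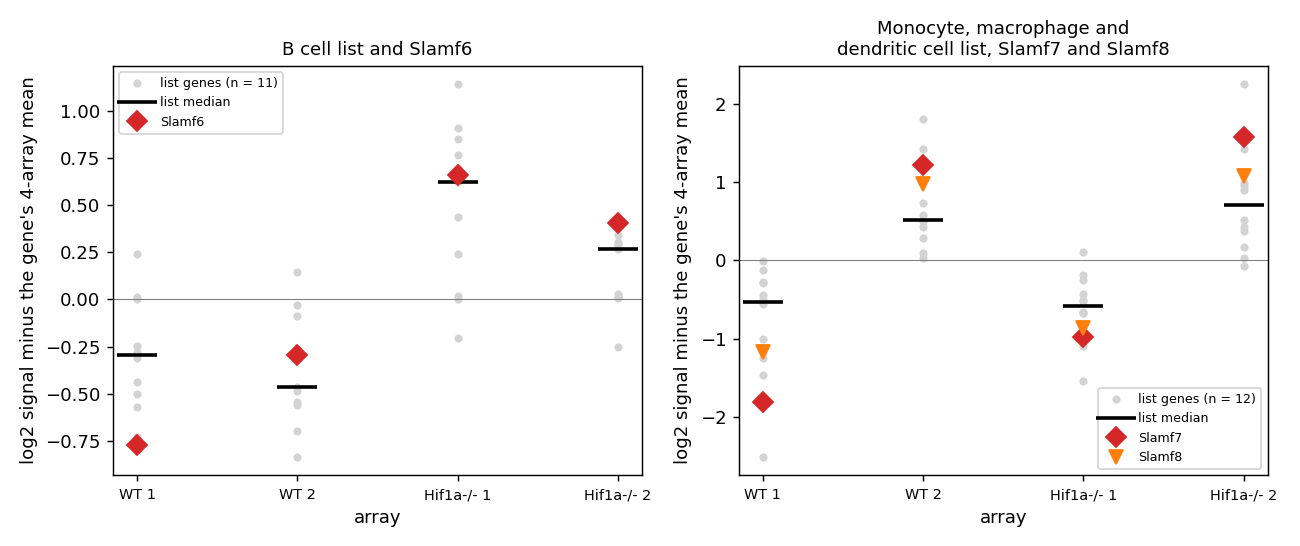
Log2 signal minus each gene's own mean over the 4 arrays (vertical axis), by array (horizontal axis), for Slamf6 with 11 B cell markers (left) and for Slamf7 and Slamf8 with 12 markers of monocytes, macrophages and dendritic cells (right); grey points are list genes and black bars their median. Slamf6 is high with the B cell markers on the Hif1a-/- arrays, and Slamf7 and Slamf8 are high with the other list on the arrays numbered 2.

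The promoter of Slamf6 is shown because this gene differed most between the genotypes, to show whether it holds the letters of the core site of HIF or of B-lineage factors. RefSeq's table (GRCm38.p6) had a promoter window of 300 bases, from 250 before to 50 after the gene start, for 8 of the 9 members, and none for Ly9. The strings searched on both strands were for the HIF core ACGTG or GCGTG, for an E-box CAGCTG, for the B-lineage factor EBF1 CCCNNGGG, for the myeloid and B-lineage factor PU.1 GAGGAA, for the RUNX factors TGTGGT, and for the GATA factors AGATAA. E-box here means CAGCTG alone, and other forms of the E-box were not searched. The palindromic CACGTG holds ACGTG on both strands, and no other pair of these strings overlapped in the windows printed. They occurred in 44.0%, 16.4%, 13.7%, 28.1%, 16.7% and 11.2% of 32544 distinct windows of the same length. The window of Slamf6, chr1:171917212-171917511 on the plus strand, held none of the 6 and is printed in lower case throughout.
Slamf6: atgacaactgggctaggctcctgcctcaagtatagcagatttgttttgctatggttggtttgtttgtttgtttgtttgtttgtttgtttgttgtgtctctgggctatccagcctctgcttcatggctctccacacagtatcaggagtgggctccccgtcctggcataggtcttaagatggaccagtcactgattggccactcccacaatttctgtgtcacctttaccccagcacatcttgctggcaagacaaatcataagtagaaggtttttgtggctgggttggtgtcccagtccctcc
The HIF core letters were in 4 of 8 member windows (Cd244a, Slamf7, Slamf8 and Slamf9). The E-box was in 4 (Slamf1, Slamf7, Slamf8 and Slamf9) and GAGGAA in 4 (Cd244a, Cd84, Slamf8 and Slamf9). TGTGGT was in 2 (Cd48 and Cd84), CCCNNGGG in 1 (Slamf1) and AGATAA in 0. A match is only a run of letters, and its absence says only that the letters are not in this window.

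Ly9, Cd84 and Slamf7 were not separated by genotype. Ly9, which encodes the lymphocyte receptor CD229, had log2 signals of 10.58 and 10.76 in WT, and of 10.72 and 10.66 in Hif1a-/- arrays 1 and 2. The 4 arrays spanned 0.18 log2 units, with a genotype difference of 0.02 (SE 0.13, 95% interval −0.33 to 0.37) that turned under median centring (−0.07) and a number difference of 0.06 (SE 0.14). Cd84, a receptor that binds itself and is known from B cells, platelets and myeloid cells as well, had 10.34 and 9.86 in WT and 10.27 and 9.69 in the Hif1a-/- arrays. Its genotype difference was −0.12 (SE 0.29, 95% interval −0.92 to 0.68). Both arrays numbered 2 were below both numbered 1 for Cd84, by −0.53 log2 units (SE 0.13), with −0.49 in WT and −0.58 in the Hif1a-/- arrays. In limma this had an unadjusted p of 0.00852 and an adjusted p of 0.0972. Without single arrays, in fits without the genotype term, the number difference of Cd84 ranged from −0.62 to −0.45. Whether it passed varied with the array left out.

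By array number, 2 of the 9 members were called by limma, Slamf7 and Slamf8, both higher in number 2, beside 5.56% of all genes called and 3.29% called higher. Groups did not overlap by number for 6 members, against 47.6% of all genes: 4 were higher in number 2 (Cd48, Slamf7, Slamf8 and Slamf9), against 20.4% of genes, and 2 lower (Cd244a and Cd84), against 27.2%. At an unadjusted p under 0.05 there were 5 members, against 18.0% of genes. The median log2 difference over the members was 0.15, against −0.02 over all genes. When every probe set of the table was tested on its own, limma called 0 probe sets by number, Slamf7 and Slamf8 included (adjusted p = 0.0941 each), with 4093 at an unadjusted p under 0.05.

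Slamf7 changed most. Slamf7 encodes CRACC, a self-binding receptor of NK cells, plasma cells, activated B cells, macrophages and dendritic cells. Its log2 signal was 8.44 in WT array 1 and 9.27 in Hif1a-/- array 1, and 11.47 and 11.82 in arrays 2. Both arrays numbered 2 were thus above both numbered 1 by over 2 log2 units. Those numbered 1 lay inside the signal range of the genes of unrelated tissues, the Hif1a-/- array only through Tgm1, and no fold is given. The log2 difference between the numbers was 2.79 (SE 0.16, 95% interval 2.37 to 3.21), with 3.02 in WT and 2.55 in the Hif1a-/- arrays (adjusted p = 0.00396 in limma). Within each number the Hif1a-/- array was higher, by 0.82 in number 1 and 0.35 in number 2. The mean genotype difference of Slamf7 was 0.59 with an SE of 1.41 (95% interval −3.32 to 4.49), which takes in the difference between the numbers, and its sign turned without WT array 1 (−0.93) or without Hif1a-/- array 2 (−0.69).

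Slamf8 rose with it and Slamf9 differed by less. Slamf8 encodes a receptor of macrophages and dendritic cells with a short cytoplasmic tail. Its log2 signal was 7.91 in WT array 1 and 8.21 in Hif1a-/- array 1, and 10.06 and 10.16 in arrays 2. Again the numbers did not overlap, while arrays of the same number differed by 0.30 and 0.10. The signals on arrays numbered 1 were again inside the range of the genes of unrelated tissues, and no fold is given. The log2 difference between the numbers was 2.04 (SE 0.14, 95% interval 1.70 to 2.39; adjusted p = 0.00441 in limma), with 2.15 in WT and 1.94 in the Hif1a-/- arrays. Its genotype difference was 0.20 (SE 1.03, 95% interval −2.66 to 3.07), which turned without WT array 1 (−0.87) or Hif1a-/- array 2 (−0.77). Slamf9, the other myeloid member, had 8.44 and 8.92 in WT and 8.48 and 8.82 in the Hif1a-/- arrays, inside the signal range of the genes of unrelated tissues. It was 0.41 higher in number 2 (SE 0.13; adjusted p = 0.184 in limma) and differed by −0.03 between the genotypes (SE 0.23, 95% interval −0.68 to 0.62).

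**Figure D4:**
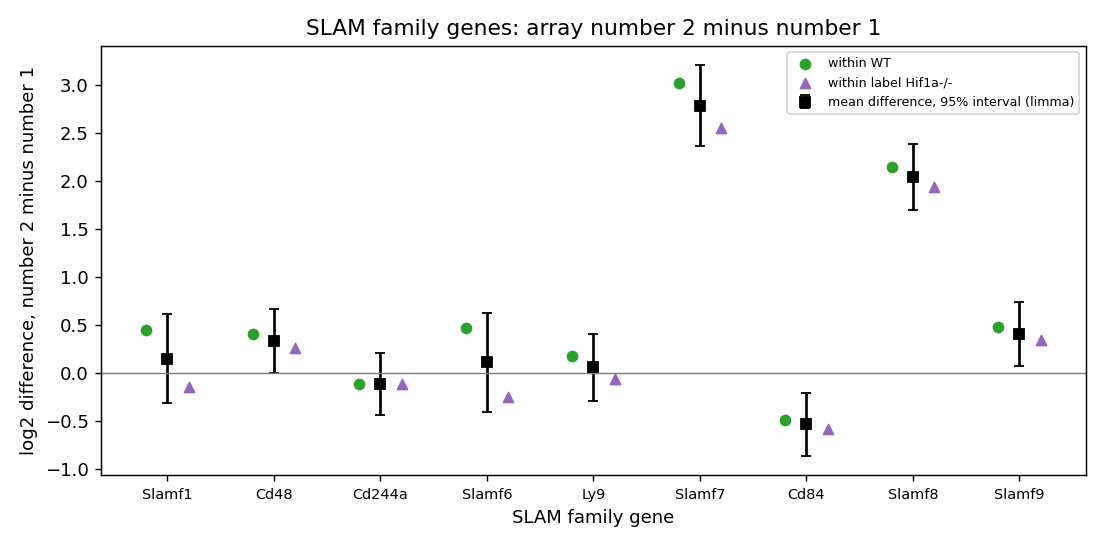
Log2 difference of each SLAM family gene between arrays numbered 2 and numbered 1 (vertical axis), with the limma mean and its 95% interval (squares, bars) and the single differences within WT (circles) and within the Hif1a-/- arrays (triangles). Slamf7 (2.79) and Slamf8 (2.04) stand above the other 7 members, and Cd84 (−0.53) is the lowest.

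Markers of myeloid cells were higher on the same arrays as Slamf7 and Slamf8. Over all genes 3.29% were called higher in number 2, and 452 of 19938 were called lower. Of 12 measured markers of monocytes, macrophages and dendritic cells 9 were called higher in number 2, with a median log2 difference of 1.17. The log2 of their summed signal was 12.94 and 12.97 in arrays 1 (WT and Hif1a-/-) and 14.38 and 14.64 in arrays 2. Xcr1, the chemokine receptor of cross-presenting dendritic cells, rose by 4.05 log2 units (adjusted p = 0.00312 in limma). All 9 of 9 measured mast cell, basophil and eosinophil markers and 8 of 11 neutrophil markers were also called higher, with medians of 1.93 and 1.82, and their log2 summed signals went from 12.57 and 12.95 to 14.54 and 14.61, and from 15.18 and 14.91 to 16.02 and 16.32. T and NK cell markers had 2 called higher and 1 lower of 12, B cell markers 0 of 11 and plasma cell markers 0 of 7. Stem cell genes had 4 of 15 called lower (median −0.52). Multipotent and lymphoid-primed progenitor genes had 5 of 11 called lower and 1 higher (median −0.60). Kit fell by 1.06 (adjusted p = 0.0165 in limma). The part of these cells in the Slamf7 and Slamf8 differences was not tested, and number and any unlabelled difference in sort or handling cannot be told apart. By a choice made after the values were seen, the nearest patterns were also taken for both genes. They were Id2, H2-Eb1 and Ccl6 for Slamf7, at 0.18, 0.24 and 0.27 log2 units, and Cyp27a1, Klri1 and Xdh for Slamf8, at 0.081, 0.11 and 0.15. Slamf7 and Slamf8 were 0.85 apart, and each was the other's nearest member.

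The promoters of Slamf7 and Slamf8 are shown because both genes rose together, with the matched letters in capitals. The window of Slamf7 is chr1:171648950-171649249 and that of Slamf8 chr1:172590519-172590818, both on the minus strand of GRCm38.p6 (RefSeq) and written 5′ to 3′ along the gene. Slamf7 held the HIF core at base 201 of the window and the E-box at base 248. Slamf8 held CACGTG, which reads ACGTG on both strands, at base 94, the E-box at base 196 and GAGGAA on the reverse strand at base 270.
Slamf7: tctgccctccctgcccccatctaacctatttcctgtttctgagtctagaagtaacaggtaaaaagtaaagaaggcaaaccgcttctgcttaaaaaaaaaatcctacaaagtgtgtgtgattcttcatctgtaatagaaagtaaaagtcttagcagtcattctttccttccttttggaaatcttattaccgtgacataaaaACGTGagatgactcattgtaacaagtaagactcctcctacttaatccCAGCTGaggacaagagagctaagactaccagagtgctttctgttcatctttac
Slamf8: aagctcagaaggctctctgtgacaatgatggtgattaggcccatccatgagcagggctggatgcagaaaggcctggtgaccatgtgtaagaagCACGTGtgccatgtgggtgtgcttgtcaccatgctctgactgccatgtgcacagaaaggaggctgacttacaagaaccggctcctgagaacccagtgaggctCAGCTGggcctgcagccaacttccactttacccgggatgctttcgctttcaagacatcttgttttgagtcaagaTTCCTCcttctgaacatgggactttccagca
Both windows share the HIF core, present in 44.0% of all windows, and the E-box, present in 16.4%. The window of Slamf9, which was 0.41 higher in number 2 (adjusted p = 0.184 in limma), also holds both strings. The window of Slamf6 printed above has neither string.

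No gene of the adapters and enzymes that SLAM receptors signal through was called by genotype. Of 18 measured genes of 20 listed, 10 were higher and 8 lower in the mean, with a median log2 difference of 0.02 against 0.00 over all genes and 0 called by limma. In 1 of the higher (Fyn) and 1 of the lower genes (Ptpn11) the groups did not overlap, against 24.5% of all genes in either direction. Those with the smallest unadjusted p were Rasgrp1, a Ras activator, at 0.42 (SE 0.47), the Src-family kinase gene Fyn at 0.10 (SE 0.12), and the phosphatase genes Ptpn11 at −0.15 (SE 0.12) and Ptpn6 at −0.09 (SE 0.12). SAP itself, encoded by Sh2d1a, was dim, at log2 signals of 7.03 and 7.48 in WT and 7.18 and 7.66 in the Hif1a-/- arrays. Its genotype difference was 0.17 (SE 0.26), and its number difference 0.46 (SE 0.13; adjusted p = 0.131 in limma). By number 4 of the 18 were called, beside 5.56% of all genes. Sh2d1b1, which encodes EAT-2, rose in number 2 by 1.21 log2 units (adjusted p = 0.0212), from 6.89 and 6.95 in arrays 1 to 8.33 and 7.93 in arrays 2, and Rasgrp1 rose by 0.90 (adjusted p = 0.0295). Prkcq, a protein kinase C of T cell signalling, and the phospholipase gene Plcg1 fell by 1.14 and 1.11 (adjusted p = 0.0144 and 0.0227, all 4 in limma and named for their values). EAT-2 is an adapter of Slamf7, and both their genes were higher in number 2. In the Hif1a-/- arrays the gene of SAP, the adapter of Slamf6, was 0.15 higher within number 1 and 0.18 higher within number 2. Its genotype groups overlapped. The signals of Sh2d1b1 and Sh2d1a lay inside the range of the genes of unrelated tissues. The related gene Sh2d1b2 differed by 0.40 between the numbers (SE 0.27, adjusted p = 0.585 in limma). A shared change of receptor and adapter was not tested.

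Relatives and partners of the family gave no call by genotype either. Of 12 measured genes of 14 listed, 9 had a higher and 3 a lower mean in the Hif1a-/- arrays, with a median log2 difference of 0.13. Only 1 was higher with no overlap, against 16.1% of all genes: Cd2, a second receptor for CD48 on T cells. Cd2 had log2 signals of 7.17 and 7.38 in WT and 7.44 and 7.90 in the Hif1a-/- arrays, a difference of 0.39 (SE 0.21). The co-receptor gene Tigit was at 0.44 (SE 0.39), the poliovirus receptor gene Pvr at −0.12 (SE 0.16) and the junction adhesion gene F11r at −0.30 (SE 0.47). By number 3 of the 12 were called, all higher in number 2, beside 3.29% of all genes called higher. Named for their values, they were the adhesion gene Cadm1 by 2.49 (adjusted p = 0.00403 in limma), the lymphocyte receptor gene Cd226 by 1.43 (adjusted p = 0.00873) and Tigit by 0.76 (adjusted p = 0.0418).

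The SLAM genes lie together on mouse chromosome 1, and the measured genes between them showed none of the large differences of Slamf6, Slamf7 and Slamf8. In the order of the reference gene table Cd244a, Ly9, Slamf7, Cd48, Slamf1, Cd84 and Slamf6 form a run of 7, broken by 8 other genes none of which was measured here, and Slamf9 and Slamf8 follow further along. Of the 35 other genes within this stretch 17 were measured. In the Hif1a-/- arrays 9 of these were higher and 8 lower, from −0.17 (Pex19) to 0.26 (Igsf9), with Kcnj10 at 0.19 and Dcaf8 at −0.12 and none at an unadjusted p under 0.05 in limma. The genotype groups did not overlap for 7 of the 17, against 24.5% of all genes in either direction. By number 1 of the 17 was called, Vangl2, lower by −0.76 (adjusted p = 0.0437 in limma), and the others lay between −0.50 (Dcaf8) and 0.39 (Pea15a). Within the run of 7, the genotype differences ranged from −0.14 (Cd48) to 1.07 (Slamf6), and the number differences from −0.53 (Cd84) to 2.79 (Slamf7). Cd84 and Slamf6 are neighbouring members of the run, at −0.12 and 1.07 by genotype, and Slamf7 and Cd48 likewise, at 2.79 and 0.34 by number.

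**Figure D5:**
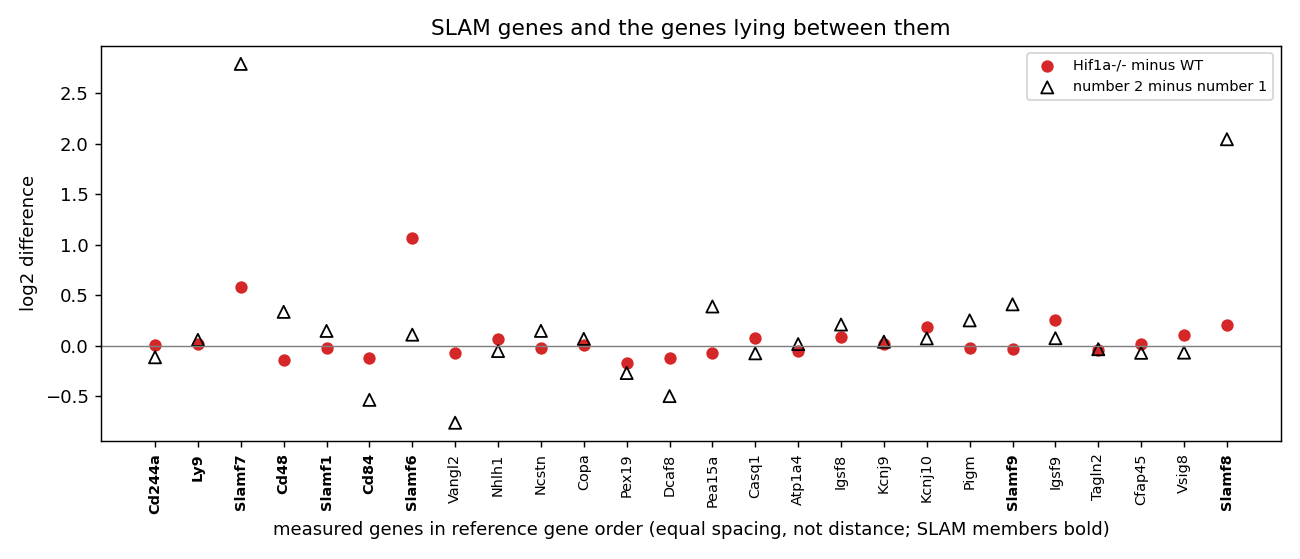
Log2 differences (vertical axis) by genotype (filled circles) and by array number (open triangles) for the SLAM members (bold) and the 17 measured genes lying between them, in the order of the reference gene table (horizontal axis, equal spacing, not distance). Slamf7, Slamf6 and Slamf8 stand out, while the 17 genes that are no members lie between −0.76 and 0.39.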

How the data were processed

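RNA of 4 LSK samples was hybridised to Affymetrix whole-transcript arrays. The authors deposited log2 signals per probe set. The submitters' processing notes name RMA and Affymetrix Expression Console 1.1, and no log base (log2 was read off the span of the signals). RMA normalizes arrays to each other and so removes any change common to all genes. Genome build and annotation are not given in the sources used here. The table held 0 columns of other samples.

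Of 35556 probe sets, 21789 had 1 gene symbol, 1621 several and 12146 none listed, and 21698 matched the reference gene table by gene ID. Per gene the probe set with the highest mean was used (19938 genes), with no filter on dim ones. Genotypes, and numbers with genotype as a covariate, were compared by limma 3.58.1 in R 4.3.3 (lmFit, eBayes, two-sided), Benjamini-Hochberg adjusted over all genes at 0.05, after tests on simulated data. All 9 members were named; of the adapter and relative lists up to 2 genes per direction with the smallest p by genotype, the 3 genes nearest in centred pattern to Slamf1, Cd48 and Slamf6, and up to 2 neighbouring genes per direction. Exceptions are marked as named for their values. Members and lists were chosen with earlier results of these data known. Alternatives were the replicate block, each array left out, 3 normalizations, 2 probe-set choices, leaving out the dimmest 40% of genes and eBayes with trend and robust. Array number limits the precision, with a median SE of 0.15 for a log2 genotype difference.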

Additional observations from a re-analysis of the deposited data

How the results depend on the processing

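With 2 arrays per group, no alternative called a gene by genotype in limma (0 of all genes tested in each, with 39 to 692 at an unadjusted p under 0.05), the replicate block included (0 called, 478 at an unadjusted p under 0.05). The labels do not say that the numbers pair the samples. Deviations of same-numbered arrays from their genotype means correlated at 0.669 over genes, and in this balanced design a block cannot move a mean difference. It moved unadjusted p-values, of Slamf7 from 0.698 to 0.0151, of Slamf6 from 0.00807 to 0.00305 and of Slamf8 from 0.854 to 0.194, so that 2 members, Slamf6 and Slamf7, were under 0.05 (adjusted p = 0.980 for both in limma). Without single arrays the genotype difference of Slamf6 ranged from 0.83 to 1.31. Those of Slamf1 (−0.25 to 0.20), Cd48 (−0.34 to 0.067), Cd244a (−0.049 to 0.066), Ly9 (−0.069 to 0.11), Slamf7 (−0.93 to 2.10), Cd84 (−0.41 to 0.17), Slamf8 (−0.87 to 1.28) and Slamf9 (−0.27 to 0.21) turned their sign. Under median centring Cd244a (−0.079) and Ly9 (−0.065) turned, with a median of −0.084 over all genes.

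By number, 1108 genes called became 1777 under quantile normalization, 440 under median centring, 0 with every probe set on its own row, and 1344 without the genotype term. Without single arrays it was 319 to 4661. These fits also left out the genotype term, a choice added after seeing the data, because 3 arrays with it leave no residual degrees of freedom. The lone array of a number is then assumed to vary like the other pair. Slamf7 (2.79) and Slamf8 (2.04) lost the threshold with every probe set, where more rows were tested (adjusted p = 0.0941 each). Without single arrays they ranged from 2.38 to 3.20 and from 1.89 to 2.20, and Slamf1 (−0.012 to 0.31), Slamf6 (−0.60 to 0.83) and Ly9 (−0.012 to 0.13) turned. Cd48 (0.23 to 0.44), Cd84 (−0.62 to −0.45) and Slamf9 (0.36 to 0.46) passed in some of these fits. Slamf1 is absent when the dimmest 40% of genes are left out. The cause of these shifts was not tested. Of 214 member values under alternatives, 186 kept their direction and side of the threshold. Each member has 1 probe set. The block, the genotype term, the probe-set choices, leaving out dim genes and the eBayes choice therefore left its log2 difference unchanged. In those settings the direction could not turn.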
